A study of Homo sapiens with 2 samples.

Results

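The 60 genes described here encode C2H2 zinc finger proteins and lie near the end of the long arm of human chromosome 19, from ZNF579 to MZF1. They were listed by their position, and 58 of the 60 had a named feature on the arrays, out of 14812 named genes in all. ZNF667 and ZNF550 had none and were not analysed here. The stretch itself was chosen by the difference between these same 2 arrays, since earlier results had shown higher values along chromosome 19. All differences in it are therefore given as descriptions, without a test.

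RNA came from MCF-10A, an immortal line of human breast epithelium that does not form tumours. One culture stably expressed the GTPase-activating protein ARHGAP4 fused to EGFP (EGFP-ARHGAP4), and the other stably expressed EGFP alone (EGFP vector). Each was measured on 1 Affymetrix whole-transcript array, so no value has a replicate check and differences cannot be set against variation between cultures. The sources used here state neither the promoter of the constructs nor whether each line was a clone or a pool. Values are the deposited log2 expression values. A difference is the value with EGFP-ARHGAP4 minus the value with EGFP vector, on that log2 scale.

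C2H2 zinc finger proteins bind DNA through arrays of small finger modules, each folded around a zinc ion. Many of them carry a KRAB domain, which recruits the corepressor TRIM28 and through it the histone methyltransferase SETDB1, and these proteins are best known for silencing transposable elements. Their genes arose by repeated tandem duplication and stand side by side in clusters, so neighbours are often close copies of each other.

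ARHGAP4 itself, the check of the labels, stood at 6.68 in the EGFP-ARHGAP4 array and 4.49 in the EGFP vector array. Of 17 epithelial markers 10 were measured, with a median value of 8.07 with EGFP-ARHGAP4 and 7.79 with EGFP vector. Of these 10, 9 had differences above 0, some of them close to 0, and 1, KRT14, was lower with EGFP-ARHGAP4. The basal keratin gene KRT14 stood at 6.96 with EGFP-ARHGAP4 and 9.21 with EGFP vector, EPCAM at 7.79 with EGFP-ARHGAP4 and 6.58 with EGFP vector, and CLDN7 at 8.46 with EGFP-ARHGAP4 and 7.24 with EGFP vector. In at least 1 array 9 of the 10 epithelial markers, all but KRT15, reached the level filter of 4.02, the median of all gene values. The 3 measured fibroblast markers (DCN, LUM and THY1) lay below that filter in both arrays. The 4 measured endothelial markers had a median of 3.97 with EGFP-ARHGAP4 and 3.64 with EGFP vector, with 3 differences above 0 and 1 below. KDR among them stood at 5.63 with EGFP-ARHGAP4 and 3.36 with EGFP vector. CLDN5 stood at 4.32 with EGFP-ARHGAP4 and 4.31 with EGFP vector, and ESAM at 3.62 with EGFP-ARHGAP4 and 3.93 with EGFP vector. The 4 measured immune markers had a median of 5.99 with EGFP-ARHGAP4 and 5.14 with EGFP vector, with 2 differences above 0 and 2 below. LAPTM5 among them stood at 6.497 with EGFP-ARHGAP4 and 4.45 with EGFP vector, and CD68 at 7.80 with EGFP-ARHGAP4 and 7.32 with EGFP vector. CD14 stood at 5.48 with EGFP-ARHGAP4 and 5.84 with EGFP vector, and LYZ at 1.69 with EGFP-ARHGAP4 and 1.70 with EGFP vector. VWF and LYZ lay below the filter in both arrays, and PTPRC, PECAM1, COL1A1 and TP63 were not analysed here. The part of other cells in the results below was not tested, and in bulk RNA a change in the number of cells of a type cannot be told apart from a change in RNA per cell.

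The zinc finger genes at the end of chromosome 19 were mostly higher in the EGFP-ARHGAP4 array. Their median difference was 0.26, with quartiles of 0.07 and 0.55, against -0.03 over all 14812 genes. Of the 58, 46 were above 0, 10 were below 0 and 2 had the same value in both arrays. Over all genes, 41.6% were above 0. A difference of at least 0.5, or 1.41-fold, was found for 18 of the 58 on the higher side (31.0%), where 4.25% of all genes were higher by that much. None of the 58 was lower by 0.5, where 6.47% of all genes were. At least 2-fold higher were ZNF530, ZNF772 and ZNF211, 3 of the 58, against 0.581% of all genes.

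**Figure D1:**
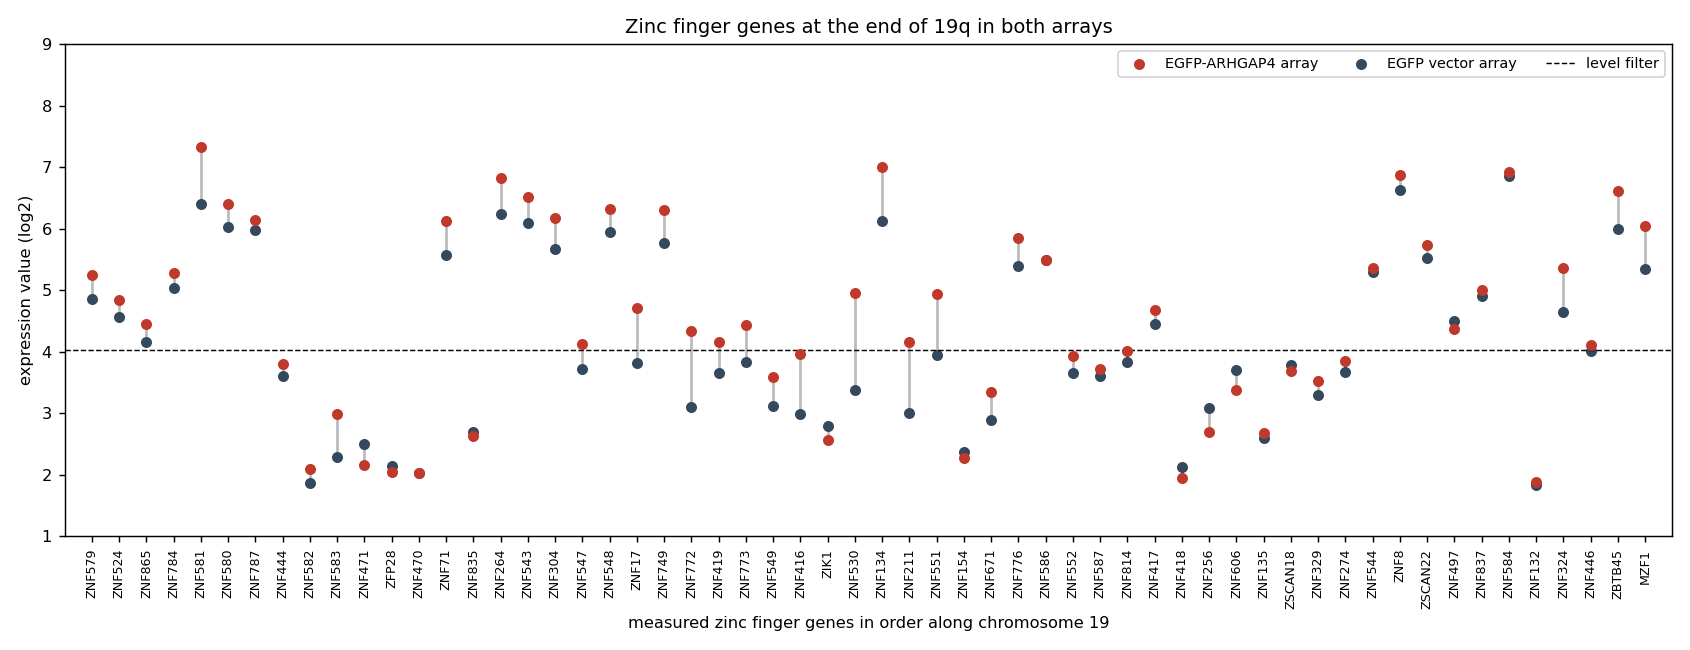
Log2 expression value of the 58 measured zinc finger genes (vertical axis), in their order along chromosome 19 (horizontal axis), in the EGFP-ARHGAP4 array (red) and the EGFP vector array (dark grey). Grey lines join the 2 values of a gene, the dashed line is the level filter of 4.02, and 46 of the 58 red points lie above their grey partner.

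Sequences just before the gene starts are shown for 5 genes, the 3 highest and the 2 lowest by difference of those that reached the level filter and have an entry in the RefSeq promoter table (GRCh38.p14). ZNF211, the third in size of difference, has no entry. Each run is the 250 bases before the annotated start, 5′ to 3′ on the gene's own strand. Capitals mark matches, on either strand, to any of 9 short letter strings. These are the GC box GGGCGG, the string CCGGAAG known from ETS factors, the CRE palindrome TGACGTCA, the box CCAAT, the string AAGATGGCG known from YY1, the palindromic motif of NRF1, the palindromic motif of ZBTB33, ACTACATT and CCAATGA. The last 2 were chosen after these sequences had been read, and CCAATGA contains CCAAT.
ZNF530, chr19:57599635-57599884, plus strand: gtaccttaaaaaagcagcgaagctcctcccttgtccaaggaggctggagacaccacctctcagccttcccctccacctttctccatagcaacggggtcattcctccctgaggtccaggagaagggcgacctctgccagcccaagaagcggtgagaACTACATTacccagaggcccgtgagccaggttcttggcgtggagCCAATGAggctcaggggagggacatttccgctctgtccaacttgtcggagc
ZNF772, chr19:57477567-57477816, minus strand: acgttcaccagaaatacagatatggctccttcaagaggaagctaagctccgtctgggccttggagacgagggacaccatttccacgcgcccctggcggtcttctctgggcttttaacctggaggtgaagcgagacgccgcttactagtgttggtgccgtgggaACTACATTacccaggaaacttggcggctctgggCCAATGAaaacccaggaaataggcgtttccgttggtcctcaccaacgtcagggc
ZNF551, chr19:57681727-57681976, plus strand: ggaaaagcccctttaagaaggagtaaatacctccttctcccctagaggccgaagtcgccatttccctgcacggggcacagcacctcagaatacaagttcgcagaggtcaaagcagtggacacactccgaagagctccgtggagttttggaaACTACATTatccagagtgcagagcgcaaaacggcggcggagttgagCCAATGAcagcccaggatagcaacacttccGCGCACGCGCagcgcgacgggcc
ZNF586, chr19:57769426-57769675, plus strand: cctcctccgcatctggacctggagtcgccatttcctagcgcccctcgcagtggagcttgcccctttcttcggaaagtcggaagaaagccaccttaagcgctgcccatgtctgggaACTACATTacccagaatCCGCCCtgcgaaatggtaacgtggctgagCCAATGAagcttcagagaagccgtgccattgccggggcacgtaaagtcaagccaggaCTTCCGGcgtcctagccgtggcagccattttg
ZNF497, chr19:58362752-58363001, minus strand: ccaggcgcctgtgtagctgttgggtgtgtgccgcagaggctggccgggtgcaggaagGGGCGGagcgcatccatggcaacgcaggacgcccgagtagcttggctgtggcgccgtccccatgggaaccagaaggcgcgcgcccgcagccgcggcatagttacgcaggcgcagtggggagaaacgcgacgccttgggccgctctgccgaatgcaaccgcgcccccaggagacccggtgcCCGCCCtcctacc

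The first 4 of these promoters hold ACTACATT followed by CCAATGA, and the promoter of ZNF497 holds neither. ZNF530, ZNF772 and ZNF551 had differences of 1.58, 1.24 and 0.99, and reached the level filter through the EGFP-ARHGAP4 array alone. ZNF586, with the same 2 strings, had the same value in both arrays. The string ACTACATT occurred in 16 of the 54 listed genes with a promoter entry (29.6%). It occurred in 10.2% of 176 promoters of other zinc finger genes of chromosome 19, in 2.89% of 277 promoters of zinc finger genes on other chromosomes and in 1.04% of 15842 protein-coding promoters. The string CCAATGA occurred in 16 of the 54 as well, against 2.84% of the other zinc finger promoters of chromosome 19 and 4.35% of protein-coding promoters. Both strings were chosen from the 4 printed promoters that hold them. Those 4 are counted in each 16, so the excess over other promoters was fixed in part by that choice. Promoters that arose as copies of one another are not independent of each other.

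Genes with either string covered most of the range of differences. The 15 measured genes with ACTACATT had a median difference of 0.19 and ranged from -0.17 to 1.58, with 7 higher by at least 0.5. The 16 with CCAATGA had a median of 0.48 and ranged from -0.39 to 1.58, with 8 higher by that much. The 8 genes with both strings ranged from 0, in ZNF586, to 1.58, in ZNF530, with a median of 0.70. In the 29 with neither string the median was 0.22 and 7 were higher by at least 0.5. The string CCGGAAG was found in 25 of the 54 promoters (46.3%), against 27.4% of other zinc finger genes and 11.8% of protein-coding genes. It stood in 5 of the 17 promoters of genes higher by at least 0.5 and in 20 of the 35 of the other measured genes. GGGCGG was found in 59.3% of the 54, against 56.0% of protein-coding genes, and CCAAT in 27 of the 54, against 34.5%. The NRF1 motif was found in 14.8%, against 7.65% of protein-coding genes. TGACGTCA and AAGATGGCG each occurred in 1 of the 54, against 2.32% and 0.751% of protein-coding genes, and the ZBTB33 motif in none, against 0.587%. The median number of CpG pairs in the window was 18.5, against 17 over protein-coding genes.

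KRAB zinc finger genes make up most of the list, with 38 measured members that have a KRAB domain and no SCAN domain. Their median difference was 0.32, 29 were above 0, 7 below 0 and 2 at 0, and 13 were higher by at least 0.5. That is 34.2% higher by 0.5, against 31.0% of the 58 and 4.25% of all genes. Above 0 were 76.3% of the 38, against 79.3% of the 58 and 41.6% of all genes. The 3 largest differences of the whole list were found here. ZNF530 stood at 4.95 in the EGFP-ARHGAP4 array and 3.37 in the EGFP vector array, a 2.99-fold difference. ZNF772 stood at 4.34 with EGFP-ARHGAP4 and 3.09 with EGFP vector, 2.37-fold. ZNF211 stood at 4.16 with EGFP-ARHGAP4 and 2.997 with EGFP vector, 2.24-fold. All 3 were under the filter with EGFP vector, near background, which makes these folds rough.

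Several other KRAB genes were higher by nearly 2-fold. ZNF551 had 2 features, the only listed gene with more than 1. They stood at 6.27 and 3.59 in the EGFP-ARHGAP4 array, against 5.41 and 2.47 in the EGFP vector array, so the features differed by 0.86 and 1.12 and pointed the same way. ZNF416 stood at 3.97 in the EGFP-ARHGAP4 array and 2.99 in the EGFP vector array, below the filter in both. ZNF17 stood at 4.71 in the EGFP-ARHGAP4 array and 3.82 in the EGFP vector array. For a scale of technical scatter, 336 genes past the filter with several features had a pooled SD of 0.21 between the differences of their features. That SD describes agreement within these 2 arrays and not between cultures.

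Among KRAB genes that reached the filter in both arrays, the differences were smaller and mostly went the same way. ZNF324 stood at 5.36 in the EGFP-ARHGAP4 array and 4.64 in the EGFP vector array, 1.65-fold higher. ZNF264 stood at 6.82 with EGFP-ARHGAP4 and 6.24 with EGFP vector, and ZNF749 at 6.29 with EGFP-ARHGAP4 and 5.77 with EGFP vector. ZNF304, which in colorectal cancer cells recruits a silencing complex to tumour suppressor genes, stood at 6.18 in the EGFP-ARHGAP4 array and 5.67 in the EGFP vector array. ZNF776, ZNF543 and ZNF548 were higher by 0.46, 0.42 and 0.36. Another 3 KRAB genes reached the filter in the EGFP-ARHGAP4 array alone. ZNF773 stood at 4.44 with EGFP-ARHGAP4 and 3.83 with EGFP vector, and ZNF419 at 4.16 with EGFP-ARHGAP4 and 3.64 with EGFP vector. ZNF547 stood at 4.12 with EGFP-ARHGAP4 and 3.71 with EGFP vector.

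Some KRAB genes with signal in both arrays had smaller differences. ZNF584 stood at 6.92 in the EGFP-ARHGAP4 array and 6.85 in the EGFP vector array, and ZNF544 stood at 5.36 with EGFP-ARHGAP4 and 5.299 with EGFP vector. ZNF8 stood at 6.88 with EGFP-ARHGAP4 and 6.63 with EGFP vector. ZNF586 was at 5.49 in both arrays, equal to the last digit. Of the 44629 features on the arrays, 3106 have equal values in both arrays, and what produces them was not tested.

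A set of near-identical neighbours, ZNF417, ZNF587, ZNF814 and the unlisted ZNF587B, differed little. ZNF417 and ZNF587 are known to repress endogenous retroviruses in human neurons. ZNF417 stood at 4.67 with EGFP-ARHGAP4 and 4.44 with EGFP vector, and ZNF587 was higher by 0.11. ZNF814 was higher by 0.19 and ZNF587B by 0.27. Their features can share RNA of the other copies, so these values are uncertain as values of single genes. The same holds for ZNF324 and its copy ZNF324B, which stood at 4.86 in the EGFP-ARHGAP4 array and 4.09 in the EGFP vector array.

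The 7 KRAB genes below 0 all had values under the filter in both arrays. ZNF256 was the lowest of the list, at 2.70 in the EGFP-ARHGAP4 array and 3.08 in the EGFP vector array, a difference of -0.39. The difference was -0.34 for ZNF471, -0.32 for ZNF606, -0.17 for ZNF418 and -0.23 for ZIK1, named for its interaction with the K protein hnRNP K. For ZNF154 and ZFP28 it was -0.10. ZNF154, ZNF582 and ZNF671 are known for promoter methylation in several cancers. ZNF582 had values of 2.09 in the EGFP-ARHGAP4 array and 1.87 in the EGFP vector array, and ZNF671 had values of 3.35 with EGFP-ARHGAP4 and 2.90 with EGFP vector. ZNF583, also under the filter in both arrays, stood at 2.99 with EGFP-ARHGAP4 and 2.28 with EGFP vector. Other KRAB genes with such low values had differences of 0.48 (ZNF549), 0.27 (ZNF552), 0.08 (ZNF135) and 0.05 (ZNF132), and ZNF470 had equal values.

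The SCAN domain lets zinc finger proteins pair with one another. The 6 measured genes with it were ZNF444, ZSCAN18, ZSCAN22 and MZF1, without a KRAB domain, and ZNF274 and ZNF446, which have both. MZF1, a transcription factor named for its role in myeloid differentiation and the last gene of the list, stood at 6.04 in the EGFP-ARHGAP4 array and 5.34 in the EGFP vector array, 1.63-fold higher. The other 5 had differences between -0.09, in ZSCAN18, and 0.21, in ZSCAN22. ZSCAN22 stood at 5.73 with EGFP-ARHGAP4 and 5.53 with EGFP vector, and ZNF446 at 4.11 with EGFP-ARHGAP4 and 4.02 with EGFP vector. ZNF274, which binds the ends of zinc finger genes and brings SETDB1 to them, was at 3.85 in the EGFP-ARHGAP4 array and 3.66 in the EGFP vector array, below the filter in both. The median difference of the 6 was 0.18. ZBTB45, the only listed gene with a BTB domain, stood at 6.60 in the EGFP-ARHGAP4 array and 5.99 in the EGFP vector array.

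For the remaining 13 genes no domain of these 3 kinds was assigned here. Their median difference was 0.28, 11 were above 0, and 3 were higher by at least 0.5 (23.1%, against 31.0% of the 58 and 4.25% of all genes). ZNF581 stood at 7.32 in the EGFP-ARHGAP4 array and 6.41 in the EGFP vector array, 1.89-fold higher, and ZNF134 at 6.997 with EGFP-ARHGAP4 and 6.12 with EGFP vector, 1.84-fold higher. ZNF71, which is induced by tumour necrosis factor in endothelial cells, stood at 6.13 with EGFP-ARHGAP4 and 5.57 with EGFP vector. Both arrays showed signal above the filter for these 3. ZNF579, ZNF580, ZNF865, ZNF524, ZNF784 and ZNF787, which open the list, had differences between 0.16 and 0.39, and the neighbour of ZNF581, ZNF580, stood at 6.41 in the EGFP-ARHGAP4 array and 6.02 in the EGFP vector array. ZNF784 stood at 5.28 with EGFP-ARHGAP4 and 5.04 with EGFP vector, and ZNF787 at 6.14 with EGFP-ARHGAP4 and 5.98 with EGFP vector. ZNF837, at 4.999 with EGFP-ARHGAP4 and 4.91 with EGFP vector, differed little. ZNF329 had a difference of 0.22 and ZNF835 of -0.06. ZNF497, at 4.36 in the EGFP-ARHGAP4 array and 4.496 in the EGFP vector array, was the only gene of the list past the filter with a difference below 0.

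**Figure D2:**
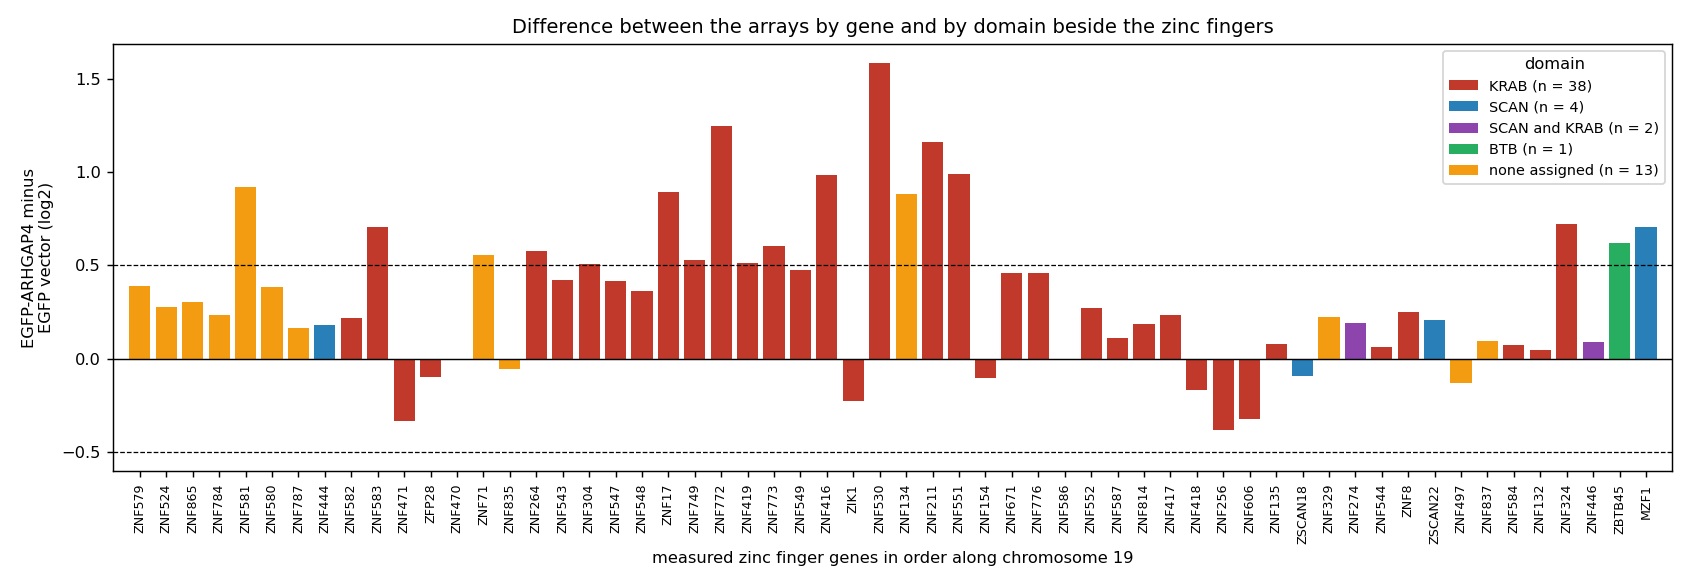
Difference in log2 expression value, EGFP-ARHGAP4 minus EGFP vector (vertical axis), for the 58 measured genes in order along chromosome 19 (horizontal axis), coloured by the domain that stands beside the zinc fingers. Dashed lines mark 0.5 and -0.5, and the 3 bars above 1, of ZNF772, ZNF530 and ZNF211, stand close together in the order.

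The differences were not spread evenly along the list. In steps of 10 measured genes, the median difference was 0.29 from ZNF579 to ZNF583, 0.39 from ZNF471 to ZNF548, 0.74 from ZNF17 to ZNF134, 0.25 from ZNF211 to ZNF417 and 0.07 from ZNF418 to ZSCAN22. The last 8, from ZNF497 to MZF1, had a median of 0.09. Of the 10 genes from ZNF17 to ZNF134, 8 were higher by at least 0.5, and of the 10 from ZNF418 to ZSCAN22 none was. The longest unbroken run above 0 was of 12 measured genes, from ZNF264 to ZNF416, with differences between 0.36 and 1.24. It was ended by ZIK1, which had little signal in either array. At the far end ZNF324, ZBTB45 and MZF1 were again higher by at least 0.5, while ZNF837, ZNF584, ZNF132 and ZNF446 between and before them lay between 0.05 and 0.09. The widest stretch without a listed gene, 19 genes in the RefSeq order, lies between ZNF835 and ZNF264. The 15 measured genes before it had a median of 0.23 and the 43 after it a median of 0.27.

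The differences were set against the level of the genes, taken as the mean of the 2 log2 values. Of the 12 listed genes with a mean under 3, 1 was higher by at least 0.5, and their median difference was -0.08. From 3 to 4 the listed genes numbered 15, with a median of 0.27, and 4 were higher by 0.5. In the 10 from 4 to 5 the median was 0.29, in the 10 from 5 to 6 it was 0.42, and in the 11 at 6 or above it was 0.42. In these 3 groups 4, 4 and 5 genes were higher by at least 0.5. Over all genes the share higher by that much was 2.81% under 3, 6.10% from 3 to 4, 5.32% from 4 to 5, 4.78% from 5 to 6 and 3.90% at 6 or above, and the median difference was -0.13 in the highest group.

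Because a gene can reach the level filter through the EGFP-ARHGAP4 array alone, the filter was also applied to the mean of both arrays. At least 1 array reached the filter for 35 listed genes, 9 of which were below it in the EGFP vector array, and 16 of the 35 were higher by at least 0.5 (5.15% of all genes past that filter). With the filter on the mean, 31 listed genes were kept and 13 were higher by at least 0.5 (4.49% of all genes past it), with a median difference of 0.39. None was lower by 0.5 under either filter, where 9.81% of all genes past the first filter were.

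**Figure D3:**
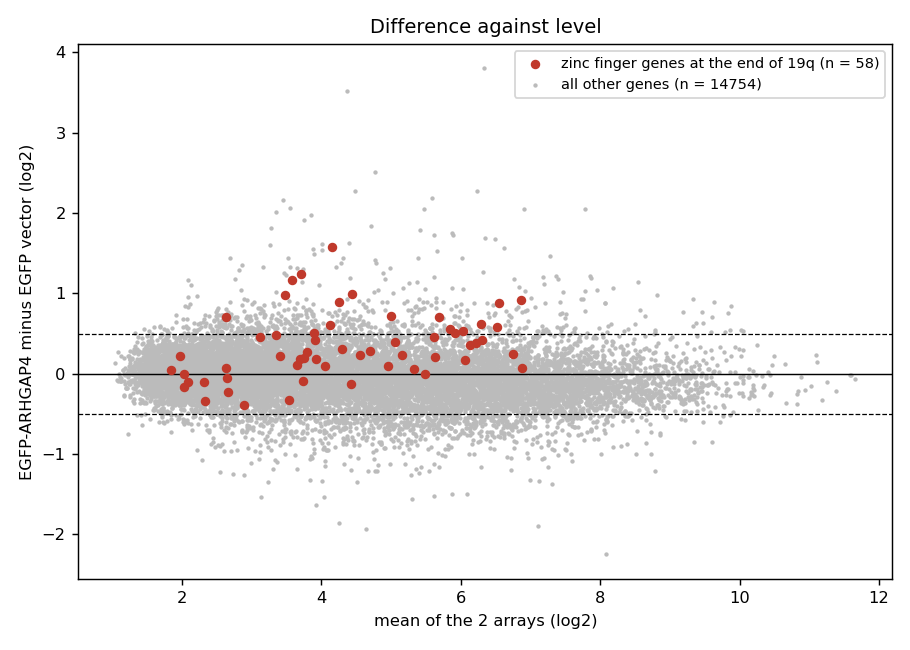
Difference between the arrays (vertical axis, log2, EGFP-ARHGAP4 minus EGFP vector) against the mean of the 2 arrays (horizontal axis, log2) for the 58 zinc finger genes at the end of 19q (red) and the other genes (grey). Dashed lines mark 0.5 and -0.5, and no red point lies below the lower line.

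Genes that lie among the listed ones were higher too, in part. Between ZNF579 and MZF1 the arrays measured 29 further genes, with a median difference of 0.20. The 14 of them past the level filter had a median of 0.41, with 12 above 0, against 0.42 for the 35 listed genes past it. With the filter on the mean of both arrays, the medians were 0.41 for 14 such genes and 0.39 for 31 listed genes. Among the 14, the 7 zinc finger genes had a median of 0.46 and the 7 others one of 0.13. Of the 29, 9 are protein-coding zinc finger genes outside the list, with a median of 0.44, and 7 of the 9 were above 0. ZNF805 stood at 6.33 in the EGFP-ARHGAP4 array and 5.62 in the EGFP vector array, and ZNF460 at 8.15 with EGFP-ARHGAP4 and 7.68 with EGFP vector. The 20 that are not protein-coding zinc finger genes had a median of 0.09, or 0.16 when the feature with the highest level stood for each gene, and only 7 of them reached the level filter. Of those 7, CHMP2A, a subunit of the ESCRT-III membrane scission machinery, stood at 8.51 in the EGFP-ARHGAP4 array and 7.63 in the EGFP vector array, 1.85-fold higher. EPN1, the endocytic adaptor epsin, was higher by 0.475, while the splicing factor gene U2AF2 had a difference of -0.04 and RNF225 one of -0.11. The galanin-like peptide gene GALP, below the filter, had a difference of -0.64.

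Just outside the list some genes were higher as well. Before ZNF579 the differences were -0.05 for SBK3, 0.50 for SSC5D, -0.08 for the zinc finger gene ZNF628 and 0.69 for ISOC2. SSC5D and ZNF628 were under the level filter in both arrays, and SSC5D stood at 2.77 with EGFP-ARHGAP4 and 2.26 with EGFP vector. After MZF1 the one further measured gene, CENPBD2P, had a difference of 0.48. Along the whole of chromosome 19, the 557 genes whose mean reached the level filter were taken in 23 consecutive groups, 22 of 25 genes and a last one of 7. In the first 11 groups the median difference lay between -0.21 and -0.03. The boundary was placed at the first group with a median above 0, so by that choice none of the first 11 could be above 0. From PDCD2L on, the medians of all 12 groups were above 0. The 9 of these that come before the listed genes lay between 0.07 and 0.27. The 3 that hold listed genes had medians of 0.30, 0.42 and 0.62, and 0.21, 0.46 and 0.48 over the 16, 7 and 3 genes that are not listed. Genes other than the listed ones were therefore among the higher ones at the end of the chromosome. Copy number was not measured, and an effect on single genes cannot be told apart from one on the whole stretch.

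**Figure D4:**
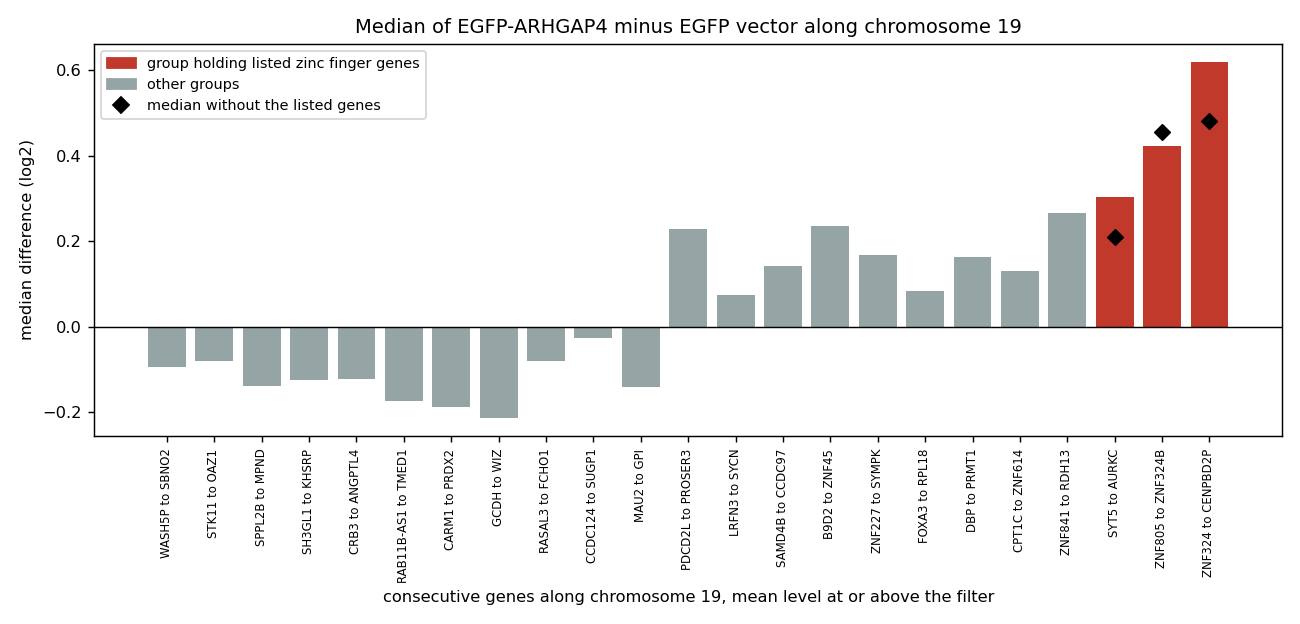
Median difference (vertical axis, log2, EGFP-ARHGAP4 minus EGFP vector) in 23 consecutive groups of genes along chromosome 19 (horizontal axis, first and last gene of each), for genes whose mean level reached the filter. The first 11 medians lie at or under -0.03 and the other 12 above 0, with the 3 groups that hold listed genes (red) among the highest and black diamonds for their medians without those genes.

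Zinc finger genes elsewhere were summarised as a whole and by cluster. The 174 measured zinc finger genes of chromosome 19 outside this stretch had a median difference of 0.00017, with 18 higher and 13 lower by at least 0.5. The 313 on other chromosomes had a median of -0.07, with 6 higher and 29 lower. That median was -0.0065 after quantile normalization and -0.013 after loess. The share higher by at least 0.5 was 10.3% of the 174 and 1.92% of the 313. Over all genes, 4.25% were higher and 6.47% were lower by that much. Zinc finger genes of chromosome 19 were also grouped into clusters wherever fewer than 20 protein-coding genes lay between neighbours. The 6 other clusters with at least 10 measured genes had medians between -0.14 and 0.13, against 0.28 for the cluster from ZNF628 to MZF1, which holds the listed genes. Among the smaller ones, the cluster from ZNF302 to ZNF792, with 5 measured genes, had a median of 0.30. All 9 other clusters after ZNF507, a boundary set by hand, had medians above 0, between 0.01 and 0.30. Of the 7 up to ZNF507, 6 had medians below 0. In the cluster from ZNF101 to ZNF507 none of 33 measured genes was higher by 0.5 and 8 were lower, and in that from ZNF175 to ZNF331 6 of 32 were higher and 1 was lower. The clusters also differ in level. Past the level filter, the 16 genes from ZNF175 to ZNF331 had a median of 0.27, with 4 higher by at least 0.5. The 42 such genes from ZNF628 to MZF1 had a median of 0.45, with 18 higher. The rest of the clusters with at least 10 measured genes had medians between -0.49 and 0.17 past the filter. This is the filter met in at least 1 array, which a gene can reach through the EGFP-ARHGAP4 array alone. Of the 35 listed genes past it, 9 did so, and the clusters were not compared with the filter on the mean. No test was made of these differences between groups of genes.

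**Figure D5:**
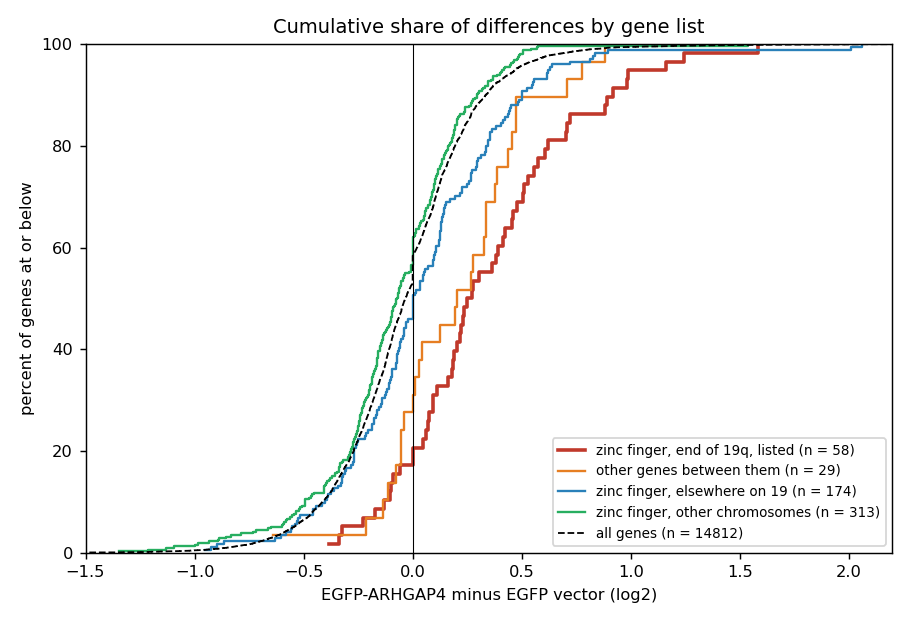
Percent of genes (vertical axis) at or below a given difference (horizontal axis, log2, EGFP-ARHGAP4 minus EGFP vector) for the 58 listed zinc finger genes, the 29 other genes between them, 174 zinc finger genes elsewhere on chromosome 19, 313 on other chromosomes and all 14812 genes. The listed genes (red) lie farthest right over most of the range, and 14 genes lie outside the axis.

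KRAB zinc finger proteins act through a set of corepressor and heterochromatin proteins. The set of 34 genes taken for this pathway also holds PGBD5 and the KRAB zinc finger genes ZNF91, ZNF93, ZFP57 and ZNF445. Of the 34, 31 were measured, without SETDB1, TASOR and SMARCAD1. None of the 31 was higher by at least 0.5 and 6, ZNF91 among them, were lower by that much, with a median difference of -0.22. The median was -0.11 after quantile normalization and -0.09 after loess. As deposited, the median difference was -0.03 over all genes. It was -0.10 over all genes past the level filter, which 26 of the 31 reached. TRIM28, the KRAB corepressor, itself lies among the zinc finger genes at the end of chromosome 19. It stood at 9.88 in the EGFP-ARHGAP4 array and 9.56 in the EGFP vector array, 1.26-fold higher. The largest differences in the set went the other way. SUV39H2, a histone H3 lysine methyltransferase gene on chromosome 10, stood at 4.66 in the EGFP-ARHGAP4 array and 5.92 in the EGFP vector array, a difference of -1.26. Its neighbours on chromosome 10 were not set beside it here. An effect on SUV39H2 alone therefore cannot be told apart from one on its stretch of that chromosome. ZNF91, a KRAB zinc finger gene of another cluster on chromosome 19 whose protein represses SVA elements, had a difference of -0.87. The differences were -0.81 and -0.50 for the DNA methyltransferase genes DNMT3B and DNMT3A, -0.52 for UHRF1, which guides maintenance methylation, and -0.61 for ATF7IP2. ZNF91, DNMT3B, DNMT3A and ATF7IP2 had values under the filter with EGFP-ARHGAP4, which makes their sizes rough. Over all genes, 4.25% were higher and 6.47% were lower by at least 0.5. Past the level filter, which all 6 lower genes reached in at least 1 array, the shares were 5.15% and 9.81%.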

How the data were processed

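Total RNA of 2 MCF-10A lines was amplified, labelled and hybridised to whole-transcript arrays, per the labels' protocols. The authors deposited 1 log2 value per feature and array (44629 features). The scale was read from the values; the sources used here do not state the summarisation, normalization, software or genome build. Feature names came from the platform annotation of 15835 features, updated through Entrez identifiers to RefSeq (GRCh38.p14), which also gave gene order. Log2 values of features sharing a symbol were averaged per array (14812 genes). The number of arrays limits the precision.

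The members and lists were chosen with earlier results of these data known. Every listed gene may be named; values in both arrays follow the 10 highest and 10 lowest differences past the filter, 5 by mean level and all of at least 0.5. Domains were assigned from general knowledge. A zinc finger gene elsewhere was taken by its symbol. With 1 array per group no test was made. Alternatives were quantile normalization, centring, loess (span 0.3), the highest feature, other filters and other thresholds. Tools were numpy 2.4.6, pandas 2.3.3, matplotlib 3.10.9 and statsmodels 0.14.6 in Python 3.11.15. The calculations were tested on simulated data.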

Additional observations from a re-analysis of the deposited data

How the results depend on the processing

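No paired analysis was possible because each group has 1 array, and for the same reason no replicate could be left out. Under 4 other settings (centring, quantile normalization, loess, the highest feature) no listed gene above or below 0 changed side, and all 18 genes higher by at least 0.5 stayed so. The median of the 58 lay between 0.26 and 0.33 there. Scaling shifted the median over all genes by at most 0.03, and over genes past the filter by at most 0.10. The median of the other zinc finger genes of chromosome 19, at 0.00017, has no settled direction, and lay at 0.04 after quantile normalization. The 3 genes at least 2-fold higher became 5 after quantile normalization and 6 after loess, and 0 with the filter at the 0.75 quantile. With that filter 8 rather than 16 genes were higher by at least 0.5. Without a level filter the median of those kept was 0.26 in place of 0.42, since genes near background are then included. At 1.5-fold 11 genes past the filter were higher, and at a log2 difference of 0.3 there were 23. Chosen after seeing the data, leaving out 4 genes with a near-identical neighbour left 15 of the 16.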

Other observations

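Non-coding genes that lie among the zinc finger genes were measured as well. MZF1-AS1, antisense to MZF1, stood at 3.98 in the EGFP-ARHGAP4 array and 3.78 in the EGFP vector array, against a difference of 0.70 for MZF1 itself. ZNF667-AS1, beside a listed gene that had no feature, had a difference of -0.06, and the divergent transcript ZNF582-DT one of 0.04, both below the level filter in both arrays. The difference was 0.13 for A1BG-AS1 and -0.05 for the plasma protein gene A1BG. The sources used here do not state the strand of the features, so signal shared between a gene and its antisense partner cannot be told apart. USP29, MIMT1 and PEG3-AS1, of the imprinted PEG3 domain in this stretch, had differences of 0.28, 0.38 and 0, with values under 2 in both arrays, near the lower end of the scale.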
